A study of Homo sapiens with 10 samples.

Results

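FOS binding was compared between non-transformed and transformed breast epithelial cells from the 2 deposited FOS peak lists, one of each state. A site was a deposited peak, represented by its summit, on chromosomes 1 to 22 and X. A site was called kept when the other FOS list had a summit within 300 bp, and otherwise lost (non-transformed list) or gained (transformed list). By this rule 119754 FOS sites before and 164605 after transformation were classed, 284359 of the 879550 peaks in all 10 lists of the series. The series holds ChIP-seq, which sequences DNA fragments recovered with an antibody against a bound protein, for FOS, JUN, JUNB, NFKB1 and STAT3 in MCF10A-ER-Src cells. This is an immortalised human mammary epithelial line with a Src oncoprotein, ER-Src, that stays inactive until an estrogen receptor ligand such as tamoxifen binds the receptor portion joined to it. Transformed cells had received 1 μM 4-hydroxytamoxifen and were taken 12 h later. Non-transformed cells carry the same fusion, and their samples are labelled EtOH, for ethanol; the name inside the FOS list gives 36 h of ethanol. There was 1 library per protein and state, so no difference between the states has a replicate check, and none was tested.

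FOS is a basic leucine zipper protein of the AP-1 family. It binds DNA as a heterodimer with a JUN protein such as JUN, JUNB or JUND, since FOS does not form stable homodimers, and AP-1 sites are frequent in enhancers of epithelial cells. FOS is an immediate early gene product induced by growth factor and Src signalling, STAT3 is activated by cytokine receptors and by Src, and NFKB1 is a subunit of the inflammatory NF-κB factor. JUND was not among the proteins measured.

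The FOS libraries were the deepest of the series, with 18619521 filtered tags (reads left after removal of duplicates) in non-transformed and 22082403 in transformed cells, a ratio of 1.19, against 4837474 to 18454386 tags in the other 8 libraries. The transformed FOS list was 1.37 times as long as the non-transformed list. The number of extended reads over a summit (the pileup) was scaled to 1000000 filtered tags of its library and is given as reads per 1000000 tags (RPM). The lowest pileup in either FOS list was 5 reads, or 0.269 RPM in the non-transformed and 0.226 RPM in the transformed list. In the other 8 lists it was 4 or 5 reads, from 0.271 RPM (JUN, transformed) to 0.827 RPM (NFKB1, non-transformed). A site without an accepted peak in a list therefore has a value below what the peak caller accepted, not a measured 0. An unmatched site can still overlap an accepted peak of the other list, as described below. Depth, antibody yield, time in treatment and binding cannot be told apart with 1 library per state. Ethanol lasted 36 h by the name inside the list, and tamoxifen 12 h.

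Most FOS sites of non-transformed cells were also found after transformation. Of the 119754 sites, 99450 (83.0%, Wilson 95% interval 82.8% to 83.3%) were kept and 20304 (17.0%, 16.7% to 17.2%) were lost. Seen from transformed cells, 99959 of 164605 sites (60.7%, 60.5% to 61.0%) were kept and 64646 (39.3%, 39.0% to 39.5%) were gained. These intervals, and all others given, cover only the counting of sites in these libraries. By the same rule the shares lost and gained were 21.0% and 49.3% for JUN, 25.6% and 44.8% for JUNB, 10.7% and 83.8% for NFKB1, and 29.1% and 61.6% for STAT3, in lists of other lengths and depths. FOS had the lowest gained share of the 5 proteins and, after NFKB1, the lowest lost share. When each FOS list was shortened to its 50000 most significant peaks, the shares lost and gained were 24.8% and 24.8%, and lists of equal length make the shares nearly equal by construction.

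Lost and gained sites were mainly weak ones. Below 0.5 RPM, 44.7% of non-transformed sites were lost and 71.2% of transformed sites were gained. From 0.5 to 1 RPM the shares were 18.1% and 40.8%, from 1 to 2 RPM 2.92% and 12.6%, and at 2 RPM and over 0.810% and 1.77%. Strong sites were thus seldom unmatched. The median pileup in RPM was 1.02 at kept against 0.483 at lost sites of non-transformed cells, and 1.13 at kept against 0.453 at gained sites of transformed cells. A total of 1024 lost and 4909 gained sites reached 1 RPM. Since the threshold of the peak caller helps to decide the class, these levels describe the classes and are not a test.

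**Figure D1:**
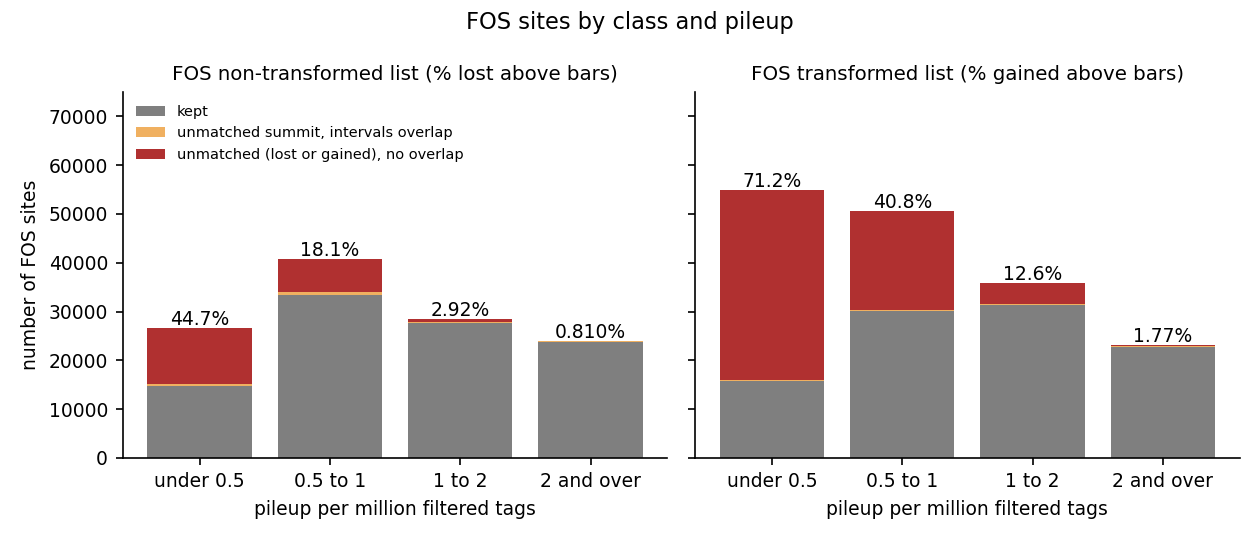
Number of FOS sites (vertical axis) in 4 steps of pileup in RPM (horizontal axis), for the non-transformed list on the left and the transformed list on the right. Grey is kept, orange is an unmatched summit whose interval overlaps an interval of the other FOS list, and red is unmatched without overlap; the share lost falls from 44.7% to 0.810% and the share gained from 71.2% to 1.77% across the steps.

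Some of the strongest unmatched sites were not separate regions. A summit can lie over 300 bp from the nearest one of the other list although the deposited intervals overlap, when the peak is wide. This held for 1464 lost sites (7.21%) and 626 gained sites (0.968%). At 2 RPM and over, 185 of 194 lost sites (95.4%) and 85 of 410 gained sites (20.7%) overlapped an interval of the other list. Without any overlap, 18840 sites were lost and 64020 gained, and of these 503 and 4676 reached 1 RPM. At this level the gained sites without overlap therefore outnumbered the lost ones. At the limit of 300 bp, 926 non-transformed sites lay at 250 to 300 bp from the nearest transformed summit, with a median of 0.537 RPM and a width of 164 bp, and 869 lay at over 300 to 350 bp, with a median of 0.537 RPM and a width of 161 bp. On the transformed side these were 1173 sites just inside the limit and 1612 just outside.

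The 5 strongest gained sites and the 5 strongest lost sites all belonged to this overlapping kind. The interval chr1:208280927-208281921 of transformed cells reached 4.17 RPM and counted as gained, while the non-transformed interval chr1:208281170-208282020 reached 6.39 RPM and counted as lost, with summits 351 bp apart. The interval chr1:233248542-233249807 had 4.48 RPM in transformed cells, and its summit was 509 bp from a non-transformed summit of 5.10 RPM. At chr1:121484144-121485508, the gained site with the largest pileup (4.75 RPM), all 8 lists of the other proteins had a summit within 300 bp, with 6.18 to 23.6 RPM, also before transformation. This interval overlaps the lost site chr1:121484111-121485514 (6.44 RPM), with summits 365 bp apart. No other protein was listed within 300 bp of that lost summit. The 23.6 RPM, of NFKB1 before transformation, was near the highest of its list (26.3). The lists were called without a control, and whether the signal in this region is binding was not tested. The other gained sites named by the rule were chr10:109731098-109731602 and chr4:13921963-13923014. The other lost sites were chr1:221613286-221613844 (6.98 RPM), chr7:41147216-41148085 and a site on chromosome 8.

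Gained sites without overlap gave a clearer picture of FOS peaks listed only after transformation. The strongest, chr7:77154504-77154885, had 3.58 RPM for FOS, and its nearest non-transformed FOS summit was 3122 bp away. In transformed cells JUN (1.68 RPM), JUNB (3.05) and STAT3 (1.00) had a summit there, and before transformation none of the other lists did. At chr1:235883902-235884245 FOS reached 3.49 RPM beside JUN at 2.38, JUNB at 3.17, NFKB1 at 1.86 and STAT3 at 4.57, and before transformation only JUNB was listed, at 1.09. At chr4:95845746-95846166 FOS reached 3.44 RPM, and all 4 other proteins were listed after and none before transformation. FOS reached 3.40 RPM at chr5:145567857-145568262 and 3.49 at a site on chromosome 8, where STAT3 had 11.8 RPM in transformed cells. JUN, JUNB and STAT3 of transformed cells were present at all 5 of these sites, and STAT3 of non-transformed cells at none. These 5 sites were picked by FOS alone: the largest pileup in transformed cells among sites with no matching or overlapping FOS peak before transformation. Because FOS had to be unlisted before, the partners listed there before and after are a description and not a test.

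Lost sites without overlap were fewer and weaker. The strongest, chr16:19517240-19517561, had 4.14 RPM for FOS in non-transformed cells and no transformed FOS summit within 3268 bp. STAT3 had 2.01 RPM there before (22 reads) and 0.669 after (6 reads), and JUN 0.694 (11 reads) and 0.434 (8 reads). JUNB was listed only before transformation (0.763, 7 reads), and NFKB1 only after (0.724, 7 reads). That NFKB1 value is under the lowest accepted in the non-transformed NFKB1 list (0.827 RPM). At chr16:78176730-78176990 FOS had 2.79 RPM and JUNB 2.51 before transformation, and neither was listed after it, while JUN had 0.631 before and 0.379 after. The other 3 were chr13:21744608-21744885 (2.69 RPM), chr7:29045508-29045725 (2.52) and chr5:171918276-171918535 (2.15). At the chromosome 13 site JUNB had 1.20 RPM before and 0.889 after transformation, and at the chromosome 7 site JUN had 0.442 and 0.650. At the chromosome 5 site STAT3 was listed only before transformation (1.65 RPM), and JUN (0.542) and JUNB (0.762) only after it. No gene is named for any site, since no annotation of the build of the lists (hg19) was used here.

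At kept sites the FOS signal differed little on the whole but spread widely from site to site. Pairing each summit with its mutual nearest summit within 300 bp gave 98390 pairs, with a median of 1.02 RPM before and 1.13 after transformation. The median log2 ratio of transformed over non-transformed was -0.08, with quartiles of -0.50 and 0.41. Of the pairs, 8416 (8.55%) had at least 2-fold more and 5908 (6.00%) at least 2-fold less pileup in RPM in transformed cells. This split depended on the scale: on the fold enrichment over local background written by the peak caller, 9.84% were up, 3.08% were down and the median log2 ratio was 0.051. When pileup was also scaled by the fragment length the peak caller used (120 bp before and 114 bp after), 9.81% were up, 4.65% were down and the median was -0.0022. The direction of the median thus depends on the scaling, and the medians of the levels (1.02 and 1.13) also differ in sign from the median of the ratios.

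The change differed with strength. Among pairs with a geometric mean of 2 RPM and over, the median log2 ratio was -0.33, and 4.18% were down against 1.28% up. From 1 to 2 RPM the median was 0.03, with 12.0% up and 6.38% down, and from 0.5 to 1 RPM it was 0.09, with 12.0% up and 7.50% down. Under 0.5 RPM the median was -0.094, with 3.35% down and 0.960% up. In RPM, lower values in transformed cells were thus the more frequent at the strongest and at the weakest pairs, and higher values in between. The lowest accepted pileup was 0.269 RPM before and 0.226 RPM after transformation, so the weakest pairs could reach lower values after it. These medians were not scaled by fragment length. Whether the floor or the scaling sets the direction at the weakest pairs was not tested. The highest pileup in RPM in the whole list was 9.94 before and 6.79 after transformation. Across pairs, log2 pileup in RPM of the 2 states correlated with a Pearson's r of 0.759 and a Spearman's rho of 0.745 (n = 98390 sites of the same 2 libraries, given as a description).

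**Figure D2:**
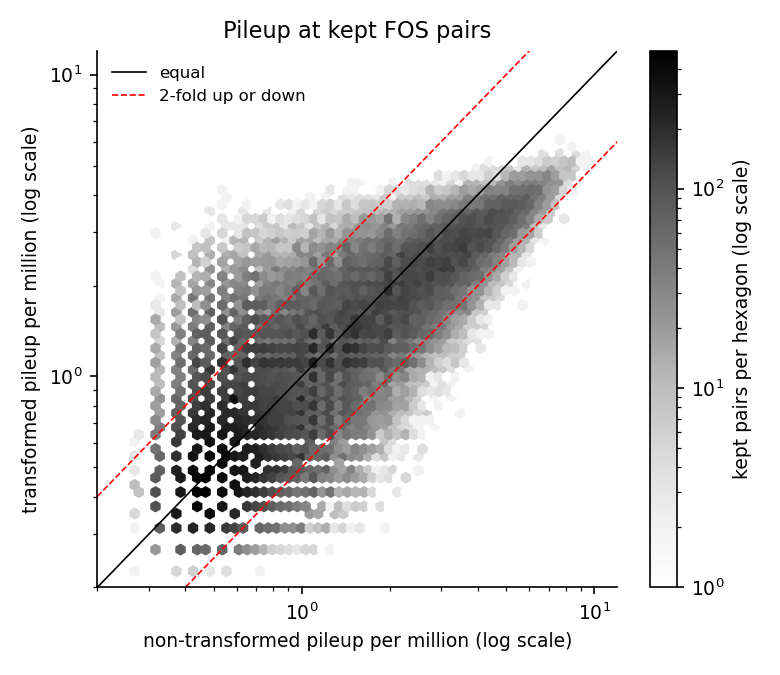
FOS pileup in RPM in non-transformed (horizontal axis) and transformed cells (vertical axis) at 98390 kept pairs, both on log scales, with grey shading for the number of pairs per hexagon. The solid line is equality and the dashed lines are 2-fold; 8416 pairs lie on or above the upper and 5908 on or below the lower dashed line, and the strongest sites bend below equality.

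The 5 kept pairs with the largest pileup in both states were all on chromosome 1, and all 5 proteins were listed there before and after transformation. The lists were called without a control, and whether the signal at these sites is binding was not tested. At chr1:145042663-145043683 FOS had 8.97 RPM before and 6.79 after, and the summits were on the same base. At chr1:237068168-237069061 it had 9.94 and 6.29 RPM, at chr1:229327732-229328144 7.41 and 6.11, at chr1:96828047-96828631 9.24 and 5.98, and at chr1:217833576-217834382 7.73 and 5.98. FOS was lower after transformation at each of these, by 1.21- to 1.58-fold, whereas JUN and STAT3 were higher at each. At the first, STAT3 had 5.95 RPM before and 13.2 after, and JUN 4.79 and 5.91.

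At the pairs with the largest rise all 4 other proteins were listed after transformation. At chr10:74055695-74056149 FOS had 0.322 RPM (6 reads) before and 2.99 (66 reads) after transformation, a log2 ratio of 3.21. None of the other proteins was listed there before, and after transformation STAT3 had 6.24 RPM, JUNB 1.71 and JUN 0.921, and NFKB1 was listed too. At chr17:14648069-14648844 FOS had 0.322 and 2.94 RPM and STAT3 0.915 and 11.3. At chr2:228260018-228260817 FOS had 0.430 and 3.89 RPM and STAT3 0.823 and 12.6, at chr7:111157723-111158074 FOS had 0.376 and 3.26, and at chr16:82097221-82097853 0.376 and 3.22. Before transformation NFKB1 had a summit at none of the 5 sites, JUN and JUNB at 2 each, and STAT3 at 3.

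At the 5 largest falls STAT3 and NFKB1 were seldom listed, as at many other kept pairs. At chr1:96026963-96027091 FOS had 3.28 RPM (61 reads) before and 0.408 (9 reads) after transformation, a log2 ratio of -3.01. At chr2:124759209-124759474 it had 2.52 and 0.317 RPM, at chr15:58493867-58493980 2.26 and 0.317, and at chr3:79921816-79921941 1.99 and 0.317, and a site on chromosome 8 had 2.26 and 0.362. NFKB1 had a summit at none of these 5 in either state, and STAT3 only at the chromosome 2 site, before transformation (0.640 RPM). JUN and JUNB of transformed cells were listed at all 5.

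Kept summits were placed precisely. The median distance between the paired summits was 15 bp, and 88.9% of pairs lay within 50 bp. The distance shrank with strength, from a median of 33 bp for a geometric mean under 0.5 RPM to 9 bp at 2 RPM and over. The median signed distance was 0 bp, so the summits of one state did not lie to one side of the other.

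Kept peaks were wider than the others. The median width was 219 bp at kept against 143 bp at lost sites before transformation, and 250 bp at kept against 149 bp at gained sites after it. Width rose with pileup, and within a step the gap was smaller: at 1 to 2 RPM the medians were 238 bp (kept) and 231 bp (lost), and 276 bp (kept) and 241 bp (gained). At 2 RPM and over, lost peaks were the wider, at 427 bp against 328 bp for kept, and the 9 lost peaks of this level without overlap had a median of 261 bp. Within pairs, the transformed peak was wider at 63.2% of sites, and the median change in width over all pairs was 26 bp. Where FOS was up 2-fold or more the median width was 166 bp before and 292 bp after, and where it was down 2-fold or more 247 bp and 191 bp.

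The JUN partners were found at most kept FOS sites, and less often at lost or gained sites. In the lists of the same state, JUN or JUNB had a summit within 300 bp of 63.5% of all non-transformed and 69.2% of all transformed FOS sites. These shares were 71.2% at kept and 26.0% at lost sites before transformation, and 88.0% at kept and 40.1% at gained sites after it. For the single lists, JUNB of transformed cells was present at 23.6% of the 64646 gained sites, against 55.1% of all transformed FOS sites, and JUN at 29.0% against 60.4%. STAT3 of transformed cells was present at 22.4% of gained sites against 40.4% of all, and NFKB1 at 16.5% against 35.7%. At lost sites in non-transformed cells the shares were 16.8% for JUN against 46.5% of all non-transformed FOS sites, 13.5% against 50.6% for JUNB, 12.2% against 26.5% for STAT3 and 2.88% against 8.89% for NFKB1. None of the 4 other proteins was listed in the same state at 67.4% of lost sites, against 25.5% of kept and 32.6% of all non-transformed sites, and at 48.3% of gained sites, against 9.87% of kept and 24.98% of all transformed sites. Most lost and gained sites were weak, and the share with a partner rose with FOS pileup in every class: JUNB of transformed cells was present at 10.1% of gained sites under 0.5 RPM and at 95.4% at 2 RPM and over.

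At 1 RPM and over, gained FOS sites mostly had their partners after transformation and seldom before. Of the 4676 gained sites without overlap, JUNB was present at 84.4% (83.3% to 85.4%) in transformed and 12.9% (11.9% to 13.9%) in non-transformed cells. JUN was present at 71.6% (70.3% to 72.9%) and 9.37% (8.56% to 10.24%), STAT3 at 59.2% (57.8% to 60.6%) and 5.77% (5.14% to 6.48%), and NFKB1 at 40.8% (39.4% to 42.2%) and 2.18% (1.80% to 2.64%). At kept sites of the same level the shares after and before were 97.2% and 79.0% for JUNB, 96.6% and 69.8% for JUN, 71.8% and 38.9% for STAT3, and 67.3% and 14.3% for NFKB1. Of all transformed FOS sites, 36.1% had a non-transformed summit of JUN, 37.6% of JUNB, 19.8% of STAT3 and 6.83% of NFKB1. The shares before transformation at gained sites thus lay below those of kept sites of 1 RPM and over, for each of the 4 proteins. The 2 sets differed in FOS strength: 325 of the 4676 gained and 22791 of the 54103 kept sites reached 2 RPM. From 1 to 2 RPM, JUNB was listed in both states at 66.6% of kept and 11.3% of gained sites without overlap. For JUN these shares were 55.1% and 8.02%, for STAT3 23.8% and 5.13%, and for NFKB1 8.30% and 2.07%. JUN or JUNB was present after transformation at 91.5% of the 4676 gained sites. JUNB without JUN was at 19.9% of them, against 2.72% of kept sites of 1 RPM and over, a set not matched for strength.

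The 503 lost sites without overlap at 1 RPM and over differed from this. JUNB was present at 44.5% (40.2% to 48.9%) before and 31.6% (27.7% to 35.8%) after transformation, against 65.1% of all non-transformed FOS sites in the transformed JUNB list. STAT3 was present at 25.2% (21.6% to 29.2%) before and 8.55% (6.41% to 11.3%) after, against 45.2% of all. JUN was present at 22.3% (18.8% to 26.1%) before and 45.3% (41.0% to 49.7%) after, against 71.7% of all, and NFKB1 at 6.36% and 7.36%, the latter against 41.9% of all. All non-transformed FOS sites of 1 RPM and over had JUNB at 84.5% before and 93.1% after, STAT3 at 41.3% and 65.8%, JUN at 72.7% and 93.9%, and NFKB1 at 14.8% and 62.7%. These include many stronger sites, whereas 494 of the 503 lay at 1 to 2 RPM. In that step all non-transformed FOS sites had JUNB before transformation at 72.9%, JUN at 56.3%, STAT3 at 28.1% and NFKB1 at 8.86%. The STAT3 share before was thus close to the 25.2% of the 503 sites, while those of JUNB and JUN were well above. At these 503 sites JUNB and STAT3 were thus listed less often after transformation than before, and JUN more often. This does not describe all 20304 lost sites, where JUNB was listed at 13.5% before and 13.3% after, with overlapping intervals, and STAT3 at 12.2% and 10.8%. At the 1464 lost sites with overlap both were listed more often after transformation, JUNB at 43.0% and 54.99% and STAT3 at 36.6% and 51.5%. At kept sites of this level all 4 proteins were listed more often after transformation, and the JUN, JUNB and NFKB1 libraries of transformed cells were the deeper of their pairs, while that of STAT3 was the shallower (0.821 times the tags).

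**Figure D3:**
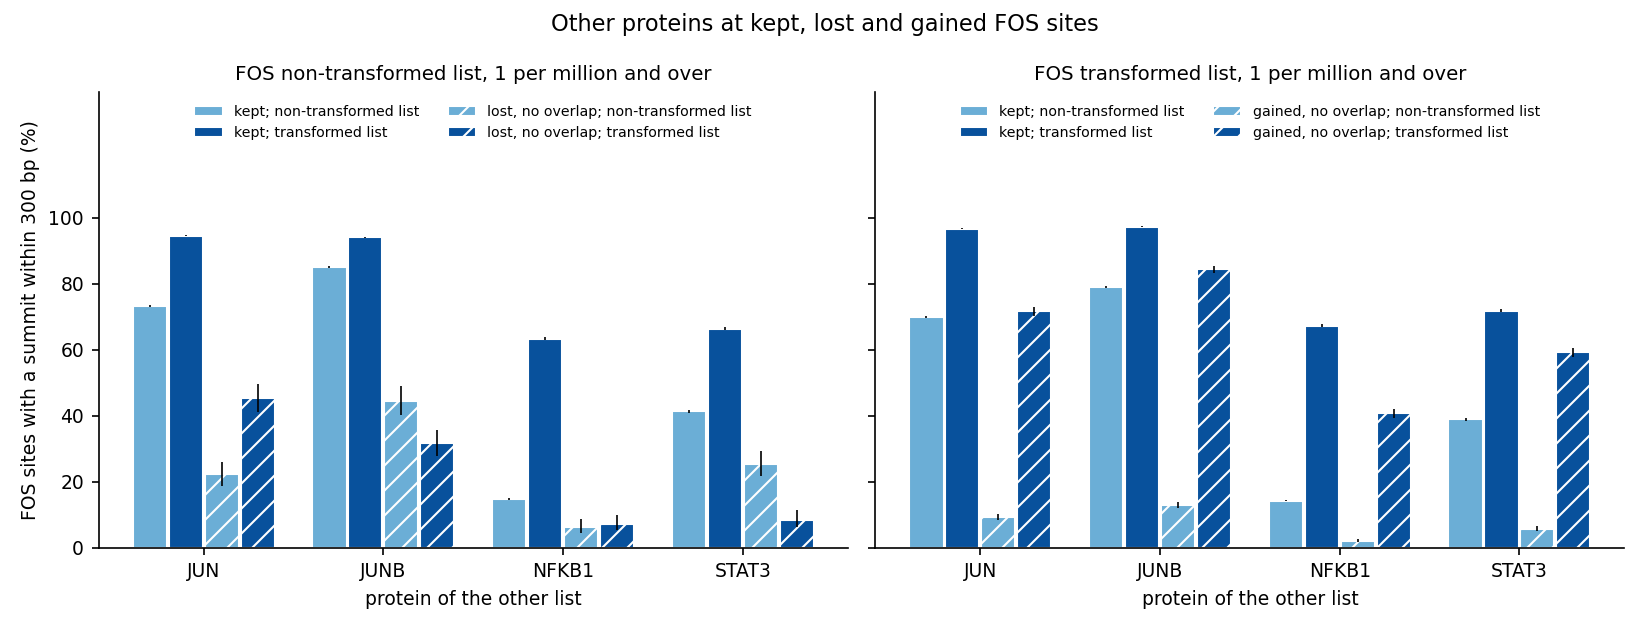
Share of FOS sites of 1 RPM and over that had a summit of JUN, JUNB, NFKB1 or STAT3 within 300 bp (vertical axis, %), for the non-transformed FOS list on the left and the transformed list on the right. Plain bars are kept and hatched bars lost or gained without overlap, light and dark blue are the non-transformed and transformed list of the other protein, and error bars are Wilson 95% intervals; JUNB is at 12.9% of gained sites before and 84.4% after transformation, and STAT3 at 25.2% of lost sites before and 8.55% after.

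The other proteins changed with FOS at kept pairs. Over all 98390 FOS pairs, JUNB was listed only after transformation at 22.8% and only before at 5.31%. Where FOS was up 2-fold or more, JUNB was listed only after at 51.9% and only before at 1.24%, and where FOS was down, at 13.6% and 11.8%. STAT3 was listed only after at 26.6% of all pairs, 52.5% of pairs with FOS up and 10.4% with FOS down, and only before at 3.84%, 0.618% and 10.8%. JUN was listed only after at 57.0% of pairs with FOS up and 28.5% with FOS down, against 30.5% of all pairs, so that the share with FOS down was close to the overall one. NFKB1 was listed only after at 51.3% and 20.2%, against 38.7% of all pairs.

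Where another protein had its own pair of peaks at the FOS pair, the ratios could be set side by side. STAT3 had a median log2 ratio of 1.83 at 1295 pairs with FOS up, 0.80 at 22710 within 2-fold and -0.0041 at 1113 with FOS down. STAT3 was up 2-fold or more at 82.5%, 39.8% and 8.98% of these, against 38.8% of all STAT3 pairs. JUNB had medians of 0.72, -0.04 and -0.61, and was up at 34.3%, 6.56% and 0.271%, against 7.81% of all JUNB pairs. JUNB was down 2-fold or more at 25.1% of pairs with FOS down, against 7.05% of all JUNB pairs. The same share was 21.6% for NFKB1 against 6.15% of all NFKB1 pairs, 6.92% for STAT3 against 1.03%, and 0.663% for JUN against 0.862%. JUN had medians of 0.78, 0.48 and 0.25, and was up at 34.7%, 17.6% and 8.63%, against 14.8% of all JUN pairs. NFKB1 had medians of 0.70, 0.10 and -0.58, and was up at 31.6%, 8.76% and 0.962%, against 9.30% of all NFKB1 pairs. For all 4 proteins the median was highest where FOS was up and lowest where FOS was down, while its level differed between proteins, being above 0 in each FOS class for JUN. These ratios were not scaled by fragment length, so their level relative to 0 depends on the scaling. Fragment length before and after was 150 and 119 bp for STAT3, 135 and 120 bp for NFKB1, 129 and 120 bp for JUN, and 123 and 129 bp for JUNB. The pairs are sites of single libraries and not replicates. Whether the libraries of a state share a culture or chromatin preparation is not given in the sources used here.

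**Figure D4:**
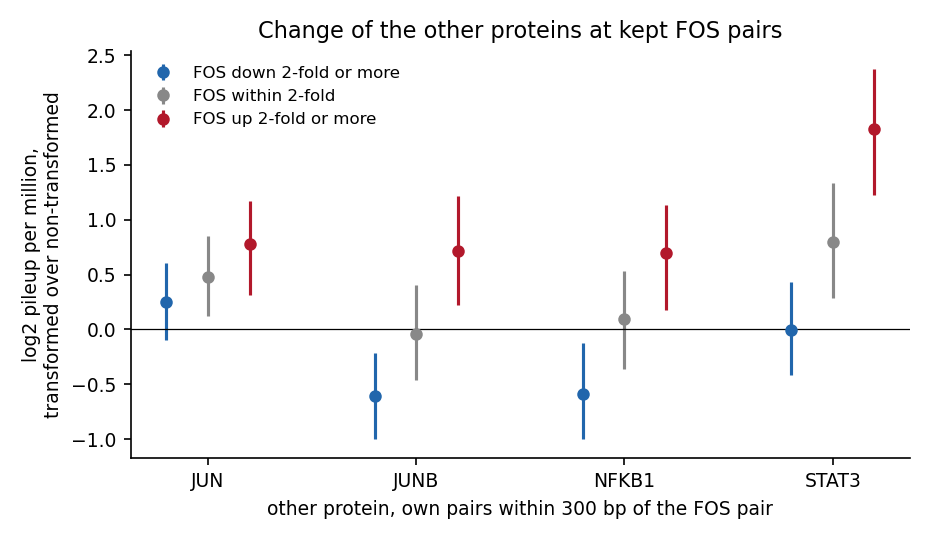
Log2 ratio of pileup in RPM, transformed over non-transformed (vertical axis), of each other protein at its own pairs within 300 bp of a kept FOS pair. Points are medians and lines run from the lower to the upper quartile, in blue for FOS down 2-fold or more, grey for FOS within 2-fold and red for FOS up 2-fold or more; STAT3 rises from -0.0041 to 1.83 and JUNB from -0.61 to 0.72 from blue to red.

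FOS sites lay close together, and both gained and lost sites mostly lay near kept ones. Another FOS summit of the same list was within 10 kb of 72.0% of kept and 66.5% of lost sites before transformation, and of 80.1% of kept and 77.3% of gained sites after it. The nearest kept site was a median of 5326 bp from a gained site and 6587.5 bp from a lost site, and 63.9% of gained sites had one within 10 kb. When summits were chained at gaps of at most 10 kb, the transformed list formed 69357 runs (a single site included), and 66.7% of gained sites stood in a run with a kept site, while 22.7% stood alone. Of these runs 17713 held only gained sites, 3020 of them with 2 or more sites and 35 with 5 or more. The non-transformed list formed 60941 runs, of which 7319 held only lost sites, 514 with 2 or more and 1 with 5. In that list 61.1% of lost sites stood in a run with a kept site, and 33.5% stood alone.

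The largest runs of only gained sites were on chromosome 2 from 189157941 to 189168581, with 8 sites summing to 2.99 RPM, and on chromosome 17 from 449883 to 464643, with 6 sites summing to 6.16 RPM. The largest run of all was shared by both states, on chromosome 1 from about 144986147 to 145118225, with 115 non-transformed sites (84 kept) and 128 transformed sites (87 kept). It includes the strongest kept pair named above. The next in transformed cells had 45 sites in 118879 bp of chromosome 1 from 39552185 to 39671063, of which 24 were gained.

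Lost and gained sites were spread over all chromosomes. The share gained ranged from 36.4% on chromosome 19 to 40.8% on chromosome X, with a median of 39.3%, and the share lost from 15.3% on chromosome 10 to 19.4% on chromosome 13, with a median of 16.6%. The transformed list was longer on every chromosome, by 1.29 times on chromosome 19 to 1.41 times on chromosome 15. In 290 stretches of 10 Mb that held at least 100 sites of each list, the share gained ranged from 27.1% to 47.5%, with quartiles of 37.6% and 41.4%. The share lost ranged from 9.11% to 29.7% over these stretches, wider than over whole chromosomes, with quartiles of 15.1% and 18.9%. The stretches hold fewer sites: these extremes were 35 of 384 and 35 of 118 sites, against 1351 to 11656 non-transformed sites per chromosome. The local background of the peak caller, relative to its genome value, had a median of 1.23 before and 1.28 after transformation on chromosome 1, 1.16 and 1.20 on chromosome 5, and 1.10 and 1.13 on chromosome 8, against 1.00 on many others. Its highest values by stretch were 1.98 and 2.02. The median level of FOS sites was highest on chromosomes 1 and 8, at 0.967 RPM before and 0.770 after on both, equalled after transformation by chromosome 5, and all 5 strongest kept pairs were on chromosome 1. Whether the higher background there is part of these levels was not tested.

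**Figure D5:**
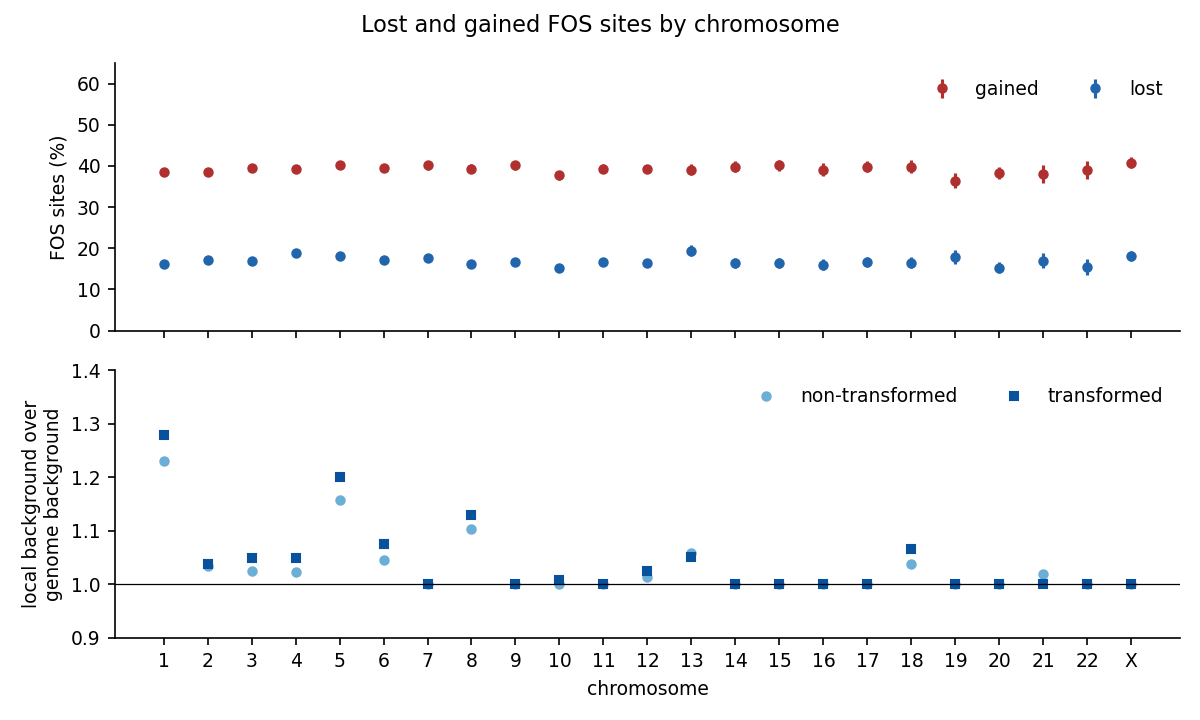
Upper panel, share of FOS sites gained (red, of the transformed list) and lost (blue, of the non-transformed list) on each chromosome, in %, with Wilson 95% intervals. Lower panel, median local background at FOS sites over the genome background; the shares lie between 36.4% and 40.8% and between 15.3% and 19.4%, while the background rises to 1.28 on chromosome 1.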

How the data were processed

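ChIP-seq peak lists of FOS, JUN, JUNB, NFKB1 and STAT3, 1 library per protein and state, were used as deposited, with samples assigned by their titles. Per the labels' processing notes, the submitters used Bowtie, MACS2 and build hg19. Per the file headers, the authors ran MACS 2.0.10.20131216 without a control on 36 bp tags, kept 1 tag per position, took the local background over 1000000 bp, and accepted peaks by q-value at 0.05. The deposited pileup is a signal in extended reads, the deposited fold enrichment expresses pileup over background as a ratio, and the deposited p-value and q-value columns are −log10 values. Every peak had 1 summit.

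Summits were matched within 300 bp, and pileup was scaled to 1000000 filtered tags (RPM). Background was taken as (pileup + 1) / fold − 1. Python 3.11.15, numpy 2.4.6, pandas 2.3.3, scipy 1.17.1 and matplotlib 3.10.9 were used. The matching code was tested on 3 simulated pairs of lists and recovered every class count. Named sites were the 5 strongest gained, lost and kept sites and the 5 largest rises and falls among pairs with at least 1 RPM in either state, 1 Mb apart. The class without overlap, its named sites and the scaling by fragment length were added after the data were seen. The members and comparisons were chosen with earlier results of these data known. Coordinates are hg19. The GRCh38 reference was not used for motifs, sequences or gene names: on 14 chromosomes the lists run past its ends. Coordinates of sites on chromosome 8 are not reported here.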

Additional observations from a re-analysis of the deposited data

Results flagged for a closer look

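The median log2 ratio of transformed over non-transformed pileup in RPM at kept pairs was -0.08 for FOS, whereas it was 0.37 for JUN, 0.04 for NFKB1 and 0.75 for STAT3, so that FOS went the opposite way from these 3 proteins. JUNB had -0.05. With 1 library per protein and state the difference was not tested, and the sign for FOS depends on the scaling.

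The mitochondrial chromosome was outside the comparisons. It held 12 FOS peaks in non-transformed cells, with a largest pileup of 10.7 RPM, and 10 in transformed cells, with a largest pileup of 4.98 RPM. The other lists held 10 to 16 such peaks.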

How the results depend on the processing

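No paired analysis was possible because there was 1 library per group. The shares lost and gained were 20.4% and 42.1% for summits within 100 bp, 13.0% and 31.0% within 1000 bp, 16.4% and 39.9% when intervals overlapped, 15.7% and 38.9% when neither held (added after seeing the data), 3.76% and 17.4% for −log10 q of at least 10 in the classed list, 13.1% and 35.5% in both lists, 24.8% and 24.8% for 50000 peaks of each list, and 1.96% and 8.32% at 1 RPM and over. Merged summits and all chromosomes moved neither beyond its interval. JUNB and STAT3 of transformed cells at gained sites were at 22.3% and 20.03% (100 bp), 27.0% and 24.3% (1000 bp), 22.5% and 21.4% (overlap), 57.9% and 42.1% (q in the classed list), 64.8% and 44.2% (q in both), 94.5% and 66.6% (50000 peaks), and 84.0% and 59.8% (1 RPM). In all 10 settings each of the 4 proteins was more frequent at gained sites after than before transformation, and less frequent at gained or lost than at kept sites.

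At kept pairs the median log2 ratio was 0 by construction with the median ratio set to 1 (10.1% up, 4.64% down), 0.051 and thus reversed on fold enrichment (9.84%, 3.08%), -0.13 for pairs with 1 RPM in either state (11.7%, 7.55%), and -0.0022 with fragment length (added after seeing the data; 9.81%, 4.65%). On fold enrichment the kept over lost and kept over gained ratios of medians were 1.98 and 2.25, against 2.11 and 2.50. Kept minus lost and kept minus gained sites with a neighbour differed by 5.47 and 2.70 percentage points at 5 kb and 4.00 and 2.14 at 20 kb. At 1 RPM in both lists, chromosomes ranged from 17.0% to 27.7% lost and 25.9% to 31.3% gained. Except where stated, the cause was not tested. Motifs and annotation were not run. A site absent from a list may lie under the lowest accepted pileup at that depth, and no list was thinned to test this.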
